A study of Homo sapiens with 27 samples.

Results

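HBL1 is an established cell line of diffuse large B-cell lymphoma (DLBCL), of the activated B-cell type. Here HBL1 cells carrying shSIRT3-1, the first of a pair of short hairpin RNAs (shRNAs) against SIRT3, were compared with HBL1 cells carrying a scramble control hairpin (shCtr). The members of the comparison were the 6 libraries of these groups, 3 with shCtr and 3 with shSIRT3-1, of 27 libraries in the series, and the 11740 genes, of 27115 listed, that reached 1 CPM in 3 or more of them. All cells, the controls included, were infected with pLKO.1 lentivirus that carries puromycin resistance and YFP and were selected with puromycin, and total RNA was taken at day 8. Each group is a single line with a single hairpin, and nothing in the labels says that the 3 replicates were separate cultures, so the p-values measure the spread between these libraries, which may be technical. Values are read counts scaled to 1e6 reads of the library (CPM), not divided by gene length. The question was which genes and pathways differ in this line when SIRT3 is knocked down with this hairpin.

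SIRT3 is an NAD-dependent deacetylase of the mitochondrial matrix that acts on enzymes of the TCA cycle, on glutamate dehydrogenase and on enzymes of fatty acid oxidation. ATF4 is a transcription factor of the integrated stress response: when kinases such as GCN2, PERK or PKR phosphorylate the initiation factor eIF2, general translation slows and the ATF4 message is translated more. ATF4 and its C/EBP partners turn on genes for amino acid synthesis, amino acid import and tRNA charging, together with brakes such as TRIB3 and CHAC1. Lymphoma cells of the activated B-cell type lean on NF-kappaB and IRF4, so the immune and B-cell programs were described beside the metabolic ones.

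Between 28694398 and 49465854 reads fell on genes in a library, and the genes held 43.9% to 45.1% of the library total with shCtr and 40.3% to 43.1% with shSIRT3-1. The libraries numbered 3 stood apart from the rest of their groups. On log2(CPM + 0.1) over the genes tested, shCtr replicates 1 and 2 correlated at r = 0.997 and each with replicate 3 at 0.976 and 0.98, while shSIRT3-1 replicates 1 and 2 correlated at 0.995 and each with replicate 3 at 0.943 and 0.933. No pair of libraries differed by less than sampling noise. B-cell markers were expressed in every library, with summed levels of 1779 to 2194 CPM with shCtr and 1832 to 2190 CPM with shSIRT3-1 over 6 genes. The 10 activated B-cell markers summed to 3412 to 3509 CPM with shCtr and 1997 to 3224 CPM with shSIRT3-1, and the 7 germinal centre markers to 182 to 201 CPM and 164 to 199 CPM. The 5 T-cell markers summed to at most 0.103 CPM, with 3 of them at 0 in every library, and the 5 monocyte markers to at most 1.15 CPM. Of 6 epithelial markers, which also cover the kidney cells that produce virus, 4 were under 1 CPM in every library, while CDH2, a cadherin, stood at 266, 257 and 312 CPM with shCtr and 219, 247 and 220 CPM with shSIRT3-1.

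The level of SIRT3 was 13.5, 14.2 and 16.4 CPM in the shCtr libraries and 2.13, 2.39 and 2 CPM in the shSIRT3-1 libraries, so the groups did not overlap. SIRT3 fell by 2.70 on the log2 scale (SE 0.16, limma adjusted p = 0.00078), and this fall lay between 2.62 and 2.77 when any 1 of the 6 libraries was left out. Among the 7 sirtuins, all tested, SIRT6, a nuclear deacylase of chromatin, went from 14.8, 15.3 and 15.9 CPM to 7.65, 9.08 and 7.5 CPM, and fell by 0.92 on the log2 scale (SE 0.13, limma adjusted p = 0.0057), and the other 5 did not pass the test.

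A gene was called when its fold change exceeded 1.5 and its adjusted p, from limma with Benjamini-Hochberg adjustment over all genes tested, was under 0.05. By this rule 1796 genes (15.3%) were lower and 812 (6.92%) were higher with shSIRT3-1. The falls were larger: 1012 genes fell and 300 rose by more than 2-fold, 218 fell and 38 rose by more than 4-fold, and 54 fell and 9 rose by more than 8-fold. The 3 shSIRT3-1 libraries lay below all shCtr libraries for 3613 genes (30.8%) and above them for 2366 genes (20.2%). In bulk RNA, fewer cells of a kind and less RNA per cell cannot be told apart. Fold changes are on the log2(CPM + 0.1) scale, which understates the change of genes with low counts.

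The split between falls and rises depended on the scaling. CPM put the median gene at -0.105, median-ratio scaling at 0.001 and quantile normalization at 0.044, so directions of gene lists are read against these medians. The member counts of every list are read against the CPM shares over all genes tested, 15.3% lower and 6.92% higher. Falls were 68.9% of the calls on CPM, 56.6% with median-ratio scaling (1475 lower, 1132 higher), 49.5% with quantile normalization (1337 and 1364), 55% with edgeR's quasi-likelihood test on the recovered reads (1438 and 1178) and 54.3% with DESeq2 (1756 and 1480). With the replicate number as a block, limma called 2292 genes lower (19.5%) and 1038 higher (8.84%). Leaving out single libraries moved the counts further: 900 lower and 310 higher without shCtr replicate 1, 653 and 181 without shCtr replicate 2, the shallowest library, and 1167 and 418 without shSIRT3-1 replicate 1. With the libraries numbered 1 and 2 alone, 2506 genes were lower and 1040 higher. Genes that fell had a median length of 4274 bases and a GC content of 45.05%, and genes that rose 3427 bases and 53.07%, against 3874 bases and 47.53% for all genes tested.

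**Figure D1:**
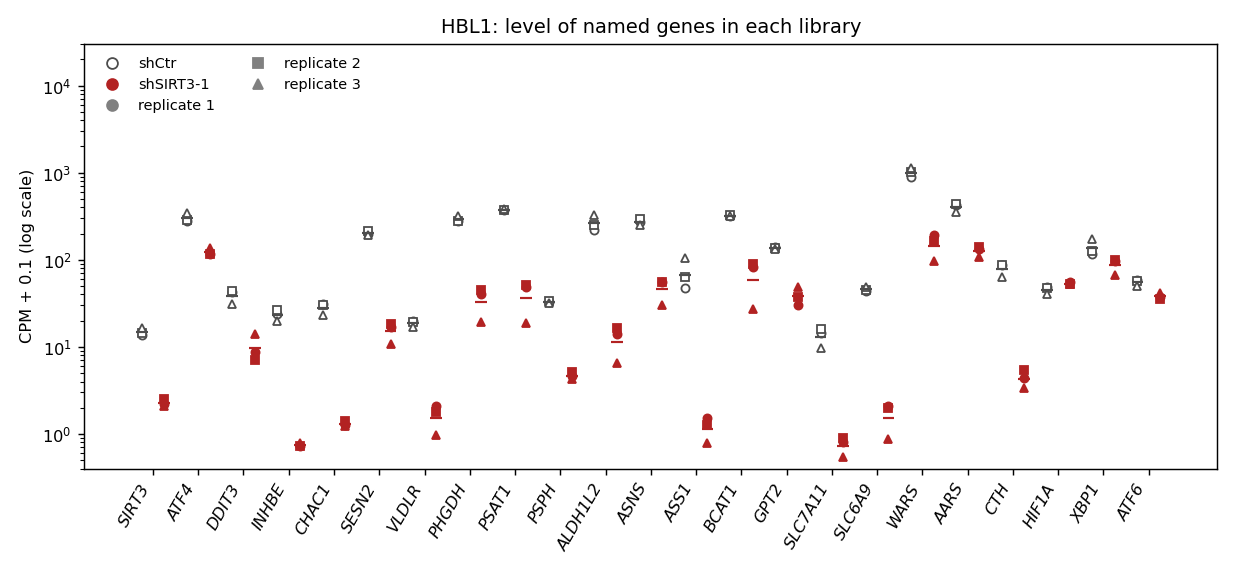
Level of 23 named genes in each HBL1 library (CPM + 0.1, log axis), with shCtr as open dark symbols and shSIRT3-1 as red symbols. Symbol shapes give the replicate number and bars the mean on the log scale. For SIRT3 and the genes from ATF4 to CTH, the 3 shSIRT3-1 libraries lie below the 3 shCtr libraries, and for HIF1A they lie above by less than 1.5-fold.

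The listed factors linked to ATF4 were lower with shSIRT3-1. The list was chosen with earlier results of these data known, and this choice favours a count in a single direction. Of 22 genes listed, 18 were tested, and 18 were lower and 0 higher, with a median log2 fold change of -2.68 against -0.105 for all genes tested. The count was 18 of 18 under median-ratio scaling, under quantile normalization, with the replicate block and without any single library. ATF4 itself stood at 280, 289 and 342 CPM with shCtr and 117, 116 and 138 CPM with shSIRT3-1 and fell by 1.30 on the log2 scale (SE 0.13, limma adjusted p = 0.0025). DDIT3, which encodes the pro-death factor CHOP, stood at 42.4, 43.2 and 30.7 CPM and 8.66, 7.05 and 13.9 CPM and fell by 2.00 (SE 0.27, limma adjusted p = 0.0049). The shSIRT3-1 values of both genes were highest in replicate 3, and neither gene had overlapping groups. All 7 transcription factors of the list fell, with a median of -2.004, and the largest fall among them, a gene chosen after its values were seen, was that of CEBPB, a dimer partner of ATF4, from 17.5, 18.5 and 20.9 CPM to 1.53, 1.99 and 1.22 CPM.

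The group of feedback genes and growth brakes, which here also holds the receptor VLDLR, had a median of -3.44 over 7 genes, all lower. This median lay below that of the transcription factors, and the difference was not tested. CHAC1, an enzyme that degrades glutathione, went from 30.7, 29.8 and 23.3 CPM to 1.16, 1.32 and 1.13 CPM and fell by 4.42 on the log2 scale (SE 0.17, limma adjusted p = 0.00017). SESN2, a leucine sensor that restrains mTORC1, went from 198, 214 and 190 CPM to 16.9, 18.3 and 10.8 CPM and fell by 3.73 (SE 0.21, limma adjusted p = 0.00064). The smallest fall of the whole list was that of PPP1R15A, the subunit that brings phosphatase to eIF2, from 68.6, 73.9 and 88.7 CPM to 35.4, 29.9 and 42.2 CPM, which fell by 1.11 (SE 0.16, limma adjusted p = 0.0061). In each of these genes all shSIRT3-1 libraries lay well below the shCtr libraries. TRIB3, a pseudokinase that inhibits ATF4 and was chosen after its values were seen, fell from 144, 184 and 238 CPM to 31.4, 30.5 and 52 CPM. The 4 genes for secreted hormones all fell, with a median of -2.93. INHBE, a subunit of activin, the largest fall of the list, went from 23.5, 26.7 and 19.8 CPM to 0.625, 0.636 and 0.693 CPM, and fell by 4.95 (SE 0.17, limma adjusted p = 0.00017). The receptor VLDLR, which takes up lipoproteins, went from 19.6, 19.2 and 17 CPM to 2.02, 1.66 and 0.873 CPM and fell by 3.60 (SE 0.30, limma adjusted p = 0.0014).

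ATF4 and C/EBP dimers are known to bind a composite element with the letters TGATGNAA, and the promoters of 5 called genes are shown because they carry these letters. The letters were searched on both strands in the RefSeq promoters (GRCh38.p14, 250 bases before to 50 after the start), for 9283 of the tested genes that matched by symbol. They occurred in 3.67% of all 27305 promoters of the table, in 1.71% of the tested genes, in 3.28% of the genes called lower (46 of 1404) and in 1.15% of those called higher (7 of 607). In the lists of ATF4-linked factors, serine and one-carbon enzymes, glutamine and asparagine enzymes, amino acid transporters and cytosolic tRNA synthetases, 65 genes matched and 14 held the letters (21.5%), of which 13 were among the 45 called lower. Those 5 of the 13 with the largest falls and with the letters before the start are printed, 250 bases each in the direction of the gene and ending at the start, with the letters in capitals. They begin 209 bases before the start in CHAC1, 191 in ATF3, 68 in ASNS, 48 in BCAT1 and 187 in AARS. CHAC1 and AARS hold them on the opposite strand. The 5 lists hold genes of amino acid metabolism and stress and were chosen with earlier results of these data known. That choice favours a high share of the letters in them. A match describes these windows and is not evidence of binding.
CHAC1, chr15:40953221-40953470, plus strand: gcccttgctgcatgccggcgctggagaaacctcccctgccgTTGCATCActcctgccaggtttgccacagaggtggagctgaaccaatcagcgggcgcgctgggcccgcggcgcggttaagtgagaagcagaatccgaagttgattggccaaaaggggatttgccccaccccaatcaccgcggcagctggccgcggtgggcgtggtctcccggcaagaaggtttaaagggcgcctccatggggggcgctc
ATF3, chr1:212565157-212565406, plus strand: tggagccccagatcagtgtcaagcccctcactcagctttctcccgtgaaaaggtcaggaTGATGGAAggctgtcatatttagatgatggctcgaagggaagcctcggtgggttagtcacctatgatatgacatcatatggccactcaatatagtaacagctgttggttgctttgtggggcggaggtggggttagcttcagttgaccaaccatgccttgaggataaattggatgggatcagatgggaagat
ASNS, chr7:97872409-97872658, minus strand: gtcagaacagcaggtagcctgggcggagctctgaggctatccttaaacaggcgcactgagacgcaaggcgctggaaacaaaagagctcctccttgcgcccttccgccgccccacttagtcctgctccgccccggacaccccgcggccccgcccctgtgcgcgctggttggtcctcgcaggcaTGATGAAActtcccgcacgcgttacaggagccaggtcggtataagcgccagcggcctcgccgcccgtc
BCAT1, chr12:24949102-24949351, minus strand: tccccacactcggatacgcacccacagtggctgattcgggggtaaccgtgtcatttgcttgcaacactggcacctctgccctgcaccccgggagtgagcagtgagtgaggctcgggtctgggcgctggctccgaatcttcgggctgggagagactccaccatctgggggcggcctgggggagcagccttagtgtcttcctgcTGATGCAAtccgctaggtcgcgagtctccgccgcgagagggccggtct
AARS, chr16:70289507-70289756, minus strand: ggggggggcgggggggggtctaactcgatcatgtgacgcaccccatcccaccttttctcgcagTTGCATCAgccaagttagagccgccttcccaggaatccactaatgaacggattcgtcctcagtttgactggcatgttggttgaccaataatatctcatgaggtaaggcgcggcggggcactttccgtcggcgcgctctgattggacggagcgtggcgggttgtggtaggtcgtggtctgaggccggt

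Enzymes that make serine, glycine and one-carbon units fell, with 9 lower and 1 higher of 15 tested and a median of -1.28. The 3 enzymes of serine synthesis were all lower, with a median of -3.15. PHGDH, which catalyses the first step, went from 276, 275 and 321 CPM with shCtr to 40.3, 44.7 and 19 CPM with shSIRT3-1 and fell by 3.15 on the log2 scale (SE 0.32, limma adjusted p = 0.0023). PSAT1, the aminotransferase of the second step, went from 368, 370 and 384 CPM to 48.4, 51.5 and 18.8 CPM and fell by 3.37 (SE 0.37, limma adjusted p = 0.003). PSPH, the phosphatase of the last step, went from 32.4, 33.3 and 32.2 CPM to 4.55, 5.03 and 4.17 CPM and fell by 2.81 (SE 0.13, limma adjusted p = 0.00033). For PHGDH and PSAT1 replicate 3 was well below the other shSIRT3-1 libraries, and for PSPH the 3 libraries were alike. In the folate cycle 6 of 12 enzymes were lower and 1 higher. ALDH1L2, a mitochondrial enzyme that oxidises formyl-tetrahydrofolate, went from 221, 248 and 330 CPM to 13.8, 16.4 and 6.37 CPM, and fell by 4.53 (SE 0.36, limma adjusted p = 0.0012). A pair of mitochondrial enzymes of the cycle was chosen after the values were seen: SHMT2, which splits serine into glycine, stood at 398, 418 and 392 CPM and 104, 106 and 45.9 CPM and fell by 2.33 (SE 0.32, limma adjusted p = 0.0051), and MTHFD2 fell by 1.72 (SE 0.34, limma adjusted p = 0.014). The counts of the list were 5 lower and 1 higher without shCtr replicate 1 or 2.

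Enzymes of glutamine, asparagine, proline and transamination showed 9 lower and 1 higher of 19 tested, with a median of -0.818. ASS1, which makes argininosuccinate in arginine synthesis, had the largest fall of the named genes, from 46.8, 62.9 and 104 CPM to 1.42, 1.17 and 0.693 CPM, and fell by 5.87 on the log2 scale (SE 0.36, limma adjusted p = 0.0008). ASNS, the asparagine synthetase, went from 269, 291 and 247 CPM to 56, 56 and 30.3 CPM and fell by 2.55 (SE 0.25, limma adjusted p = 0.0022). Both genes were lowest in shSIRT3-1 replicate 3. BCAT1, the cytosolic branched-chain aminotransferase, went from 316, 329 and 316 CPM to 81.5, 89.7 and 27.4 CPM and fell by 2.45 (SE 0.43, limma adjusted p = 0.01). GPT2, the mitochondrial alanine aminotransferase, went from 139, 136 and 134 CPM to 30.3, 37.2 and 48.9 CPM and fell by 1.84 (SE 0.18, limma adjusted p = 0.0022). For this list quantile normalization gave 9 lower and 2 higher. BCAT2, the mitochondrial counterpart of BCAT1, went up, from 16.7, 15.1 and 16.3 CPM to 22.7, 24.3 and 30.4 CPM, a log2 fold change of 0.67 (SE 0.14, limma adjusted p = 0.017), and this call was lost without shCtr replicate 1, without shCtr replicate 2 and without shSIRT3-1 replicate 3. GLUD1, the glutamate dehydrogenase on which SIRT3 is known to act and which was chosen after its values were seen, stood at 48.7, 48.6 and 57.5 CPM and 27.5, 33 and 20.9 CPM and fell by 0.95 (SE 0.18, limma adjusted p = 0.013). GLUD1 has a near-identical retrogene, GLUD2, so the reads of these genes are uncertain.

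Amino acid transporters of the plasma membrane showed 12 lower and 2 higher of 19 tested, with a median of -1.59. The glycine carrier SLC6A9 went from 43.4, 44.5 and 48.8 CPM to 1.97, 1.88 and 0.765 CPM and fell by 4.90 on the log2 scale (SE 0.34, limma adjusted p = 0.00092). The cystine importer SLC7A11 went from 14.2, 16 and 9.68 CPM to 0.709, 0.793 and 0.441 CPM and fell by 4.16 (SE 0.28, limma adjusted p = 0.00092). The neutral amino acid carriers SLC7A8 and SLC43A1 fell by 2.26 and 2.15. These carriers were lowest in shSIRT3-1 replicate 3, with no overlap between the groups. Carriers chosen after their values were seen, SLC1A5 for glutamine and SLC7A5 and SLC3A2, the chains of the leucine carrier LAT1, fell by 2.15, 2.00 and 1.68. SLC7A6, a carrier of cationic amino acids, rose from 66.7, 67.5 and 87.3 CPM to 201, 166 and 249 CPM, a log2 fold change of 1.47 (SE 0.19, limma adjusted p = 0.0043). SLC43A2, a carrier of large neutral amino acids, rose from 1.44, 1.37 and 3.36 CPM to 5.44, 5.32 and 15.5 CPM, a log2 fold change of 1.97 (SE 0.52, limma adjusted p = 0.032), and was highest in replicate 3 of both groups. The counts became 10 lower and 1 higher without shCtr replicate 1 or 2 and 12 and 1 without shSIRT3-1 replicate 1.

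The cytosolic aminoacyl-tRNA synthetases, which charge tRNAs, showed 11 lower and 0 higher of 20 tested, with a median of -0.824, whereas the mitochondrial synthetases showed 0 lower and 2 higher of 17, with a median of 0.211. WARS, for tryptophan, went from 885, 1008 and 1126 CPM to 194, 165 and 96.3 CPM and fell by 2.78 on the log2 scale (SE 0.27, limma adjusted p = 0.0022). AARS, for alanine, went from 430, 432 and 350 CPM to 131, 139 and 107 CPM and fell by 1.68 (SE 0.15, limma adjusted p = 0.0016). GARS and YARS, for glycine and tyrosine, fell by 1.58 and 1.46. Replicate 3 was the lowest shSIRT3-1 library for each of these genes. Among the mitochondrial enzymes AARS2 rose from 45.1, 40.6 and 34.1 CPM to 73.7, 67.9 and 96.5 CPM, a log2 fold change of 0.98 (SE 0.17, limma adjusted p = 0.01), and YARS2 by 0.64. The counts of the mitochondrial synthetases were 0 lower and 4 higher with quantile normalization or edgeR and 0 higher without shCtr replicate 2, and those of the cytosolic synthetases 11 lower and 1 higher without shSIRT3-1 replicate 3.

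Glutathione genes showed 4 lower and 0 higher of 13 tested, with a median of -0.491. CHAC1 and SLC7A11 are members, and CTH, which makes cysteine from cystathionine, went from 86.4, 87.3 and 62.5 CPM to 4.27, 5.26 and 3.29 CPM and fell by 4.18 on the log2 scale (SE 0.22, limma adjusted p = 0.00062). GGT1, which cleaves extracellular glutathione, fell by 0.73 (SE 0.19, limma adjusted p = 0.033). The synthesis enzymes GCLC and GSS, chosen after their values were seen, had log2 fold changes of 0.33 (SE 0.18, limma adjusted p = 0.2) and -0.28 (SE 0.15, limma adjusted p = 0.2), with overlapping groups for GCLC. Among the kinases, phosphatase subunits and eIF2 subunits of the integrated stress response, 5 of 16 were lower and 0 higher, with a median of -0.248. EIF2AK4, the amino acid sensor GCN2, went from 40.1, 45.8 and 49.1 CPM to 18.1, 24.1 and 25.9 CPM and fell by 1.00 (SE 0.17, limma adjusted p = 0.0085). EIF2AK2, the interferon-induced kinase PKR, fell by 1.15 (SE 0.29, limma adjusted p = 0.03), and EIF2S2, the beta subunit of eIF2, fell by 1.11 (SE 0.11, limma adjusted p = 0.0025). For this list the counts were 3 lower and 1 higher without shCtr replicate 1 and 2 and 0 without shCtr replicate 2, and 4 lower and 2 higher with median-ratio scaling.

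Regulators of mTORC1 differed between members and median: 4 of 20 were lower and 0 higher, while the median was 0.319. The shares over all genes tested were 15.3% lower and 6.92% higher. The 4 were SESN2, DDIT4, FNIP2 and NPRL3, which are known as restraining or regulatory factors of the pathway. DDIT4, a stress-induced brake, went from 47.7, 45.3 and 30.1 CPM to 5.23, 3.37 and 2.65 CPM and fell by 3.44 on the log2 scale (SE 0.29, limma adjusted p = 0.0015). FNIP2 fell by 1.44 and NPRL3, a subunit of the GATOR1 complex, fell by 0.59. Leaving out single libraries gave 2 lower and 0 higher without shCtr replicate 1 or 2, 4 and 1 without shCtr replicate 3 and 4 and 2 without shSIRT3-1 replicate 2, and median-ratio scaling 3 lower and 2 higher.

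**Figure D2:**
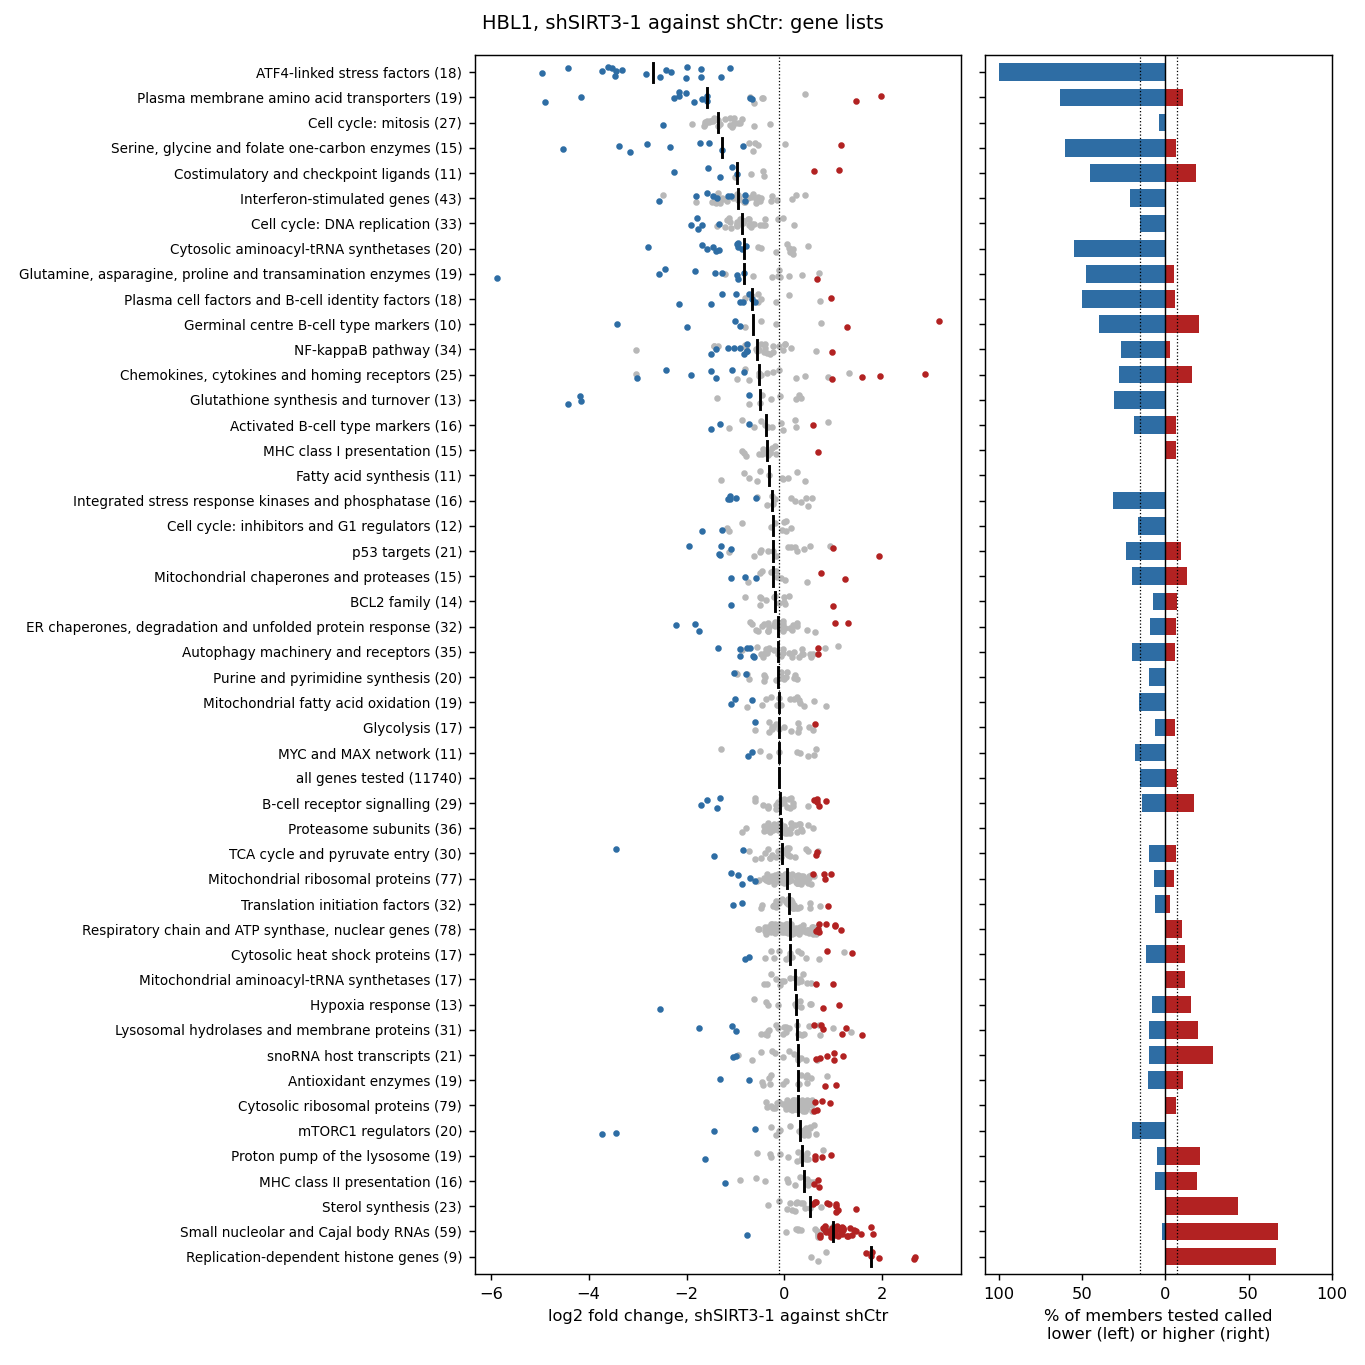
Gene lists with at least 9 tested members in HBL1, ordered by median, with the number tested in brackets. At left each point is the log2 fold change of a member (blue lower, red higher, grey not called) and the bar the list median, beside the median of all genes tested (dotted). At right bars give the percent of members called lower or higher, with dotted lines at 15.3% and 6.92% for all genes. The ATF4-linked list has all 18 members called lower.

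Stress responses other than ATF4 moved less. HIF1A, the oxygen-regulated factor, stood at 48.2, 47.6 and 40.2 CPM with shCtr and 55.5, 52.4 and 51.9 CPM with shSIRT3-1, a log2 fold change of 0.24 (SE 0.11, limma adjusted p = 0.15), and of 13 genes of the hypoxia response 1 was lower and 2 higher, with a median of 0.237. The lower gene was VEGFA, an angiogenic ligand that is also on the ATF4-linked list, from 111, 120 and 152 CPM to 27.7, 27.9 and 13.2 CPM, which fell by 2.54 (SE 0.31, limma adjusted p = 0.0037). The glucose transporter SLC2A1 rose from 11.7, 7.91 and 9.06 CPM to 24.1, 16.5 and 22.2 CPM, a log2 fold change of 1.12 (SE 0.21, limma adjusted p = 0.012), and the mitophagy receptor BNIP3 by 0.78. Its counts were 1 lower and 1 higher without shCtr replicate 1, 1 and 0 without shCtr replicate 2 and 2 and 1 without shSIRT3-1 replicate 1, and the block called 2 lower. Of 32 genes of the endoplasmic reticulum, 3 were lower and 2 higher, with a median of -0.139. XBP1, a factor of the unfolded protein response, stood at 115, 125 and 172 CPM and 97.2, 98.7 and 65.9 CPM, a log2 fold change of -0.65 (SE 0.22, limma adjusted p = 0.066), and was called lower when the fit held the 9 HBL1 libraries (limma adjusted p = 0.0243) or all 27 libraries (0.0357). ATF6, another such factor, stood at 57.9, 57.3 and 50.3 CPM and 37.4, 35.1 and 41.4 CPM, a log2 fold change of -0.54 (SE 0.12, limma adjusted p = 0.017) that is under the 1.5-fold limit. That limit was passed without shCtr replicate 3, at -0.60, and without shSIRT3-1 replicate 3, at -0.60.

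Within the endoplasmic reticulum list the called genes were EDEM1, SEL1L and ERN1 on the lower side. EDEM1, which extracts misfolded glycoproteins, went from 386, 393 and 441 CPM to 106, 99.2 and 63.4 CPM and fell by 2.21 on the log2 scale (SE 0.21, limma adjusted p = 0.0019). ERN1, the stress sensor IRE1, went from 12.1, 15.7 and 20.9 CPM to 4.06, 4.38 and 4.69 CPM and fell by 1.83 (SE 0.22, limma adjusted p = 0.0035), and SEL1L, of the same degradation route as EDEM1, fell by 1.75 (SE 0.20, limma adjusted p = 0.003). The chaperone CALR rose from 268, 244 and 264 CPM to 654, 590 and 384 CPM, a log2 fold change of 1.03 (SE 0.21, limma adjusted p = 0.015), with replicate 3 the lowest of its group, and DERL3, a channel component, rose by 1.31. The endoplasmic reticulum counts were 3 lower and 0 higher without shCtr replicate 1 or 2 and 3 and 1 without shSIRT3-1 replicate 1. Cytosolic heat shock proteins had 2 lower and 2 higher of 17, with HSPB1 at -0.80 and HSPA1B at 1.37. HSPA1B has a near-identical copy, HSPA1A, so its reads are uncertain, and the heat shock counts were 0 lower and 2 higher with quantile normalization and 0 lower and 1 higher without shCtr replicate 1 or 2 or without shSIRT3-1 replicate 1, 2 and 1 without shSIRT3-1 replicate 2 and 1 and 4 without shSIRT3-1 replicate 3.

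Lists of glycolysis and mitochondrial metabolism are read against the shares over all genes tested, 15.3% lower and 6.92% higher. For glycolysis, 1 of 17 was lower (PFKP, -0.61) and 1 higher (PFKM, 0.63), both phosphofructokinases, with 0 lower and 1 higher without shCtr replicate 1 or 3 or without shSIRT3-1 replicate 1 or 3 and 0 and 0 without shCtr replicate 2. Median-ratio scaling, quantile normalization and edgeR each gave 0 lower and 2 higher. For the TCA cycle and pyruvate entry, 3 of 30 were lower and 2 higher, with a median of -0.049. PCK2, the mitochondrial enzyme that makes phosphoenolpyruvate, went from 190, 194 and 165 CPM to 20.4, 22.6 and 10 CPM and fell by 3.45 on the log2 scale (SE 0.30, limma adjusted p = 0.0016). ME2, the mitochondrial malic enzyme, fell by 1.43 (SE 0.34, limma adjusted p = 0.024) and FH, the fumarase, fell by 0.85 (SE 0.21, limma adjusted p = 0.029). IDH3B, a dehydrogenase subunit, rose by 0.65. The replicate block gave 5 lower and 3 higher, and leaving out single libraries gave 1 lower and 1 higher without shCtr replicate 1 or without shSIRT3-1 replicate 1, 1 and 0 without shCtr replicate 2, 2 and 1 without shCtr replicate 3, 4 and 1 without shSIRT3-1 replicate 2 and 3 and 1 without shSIRT3-1 replicate 3.

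Respiratory chain and ATP synthase subunits encoded in the nucleus showed 0 lower and 8 higher of 78, with a median of 0.113. NDUFA7, of complex I, went from 6.96, 6.38 and 6.63 CPM to 13.9, 13.4 and 17.5 CPM, a log2 fold change of 1.15 (SE 0.15, limma adjusted p = 0.0046), and COX7C, of complex IV, from 58.6, 68.7 and 46.7 CPM to 113, 115 and 123 CPM, a log2 fold change of 1.03 (SE 0.15, limma adjusted p = 0.0064). Single libraries mattered, with 0 lower and 2 higher without shCtr replicate 2, 1 and 3 without shCtr replicate 3, 0 and 4 without shSIRT3-1 replicate 1 and 1 and 9 without shSIRT3-1 replicate 2, and median-ratio scaling gave 13 higher. Mitochondrial ribosomal proteins showed 5 lower and 4 higher of 77, with MRPL30 at -1.09 and MRPL36 at 0.95 at the ends, and 2 lower and 2 higher without shCtr replicate 1, 1 and 0 without shCtr replicate 2, 4 and 2 without shCtr replicate 3 and 3 and 2 without shSIRT3-1 replicate 1. Their balance depended on the scaling, with 4 lower and 8 higher under median-ratio scaling, 4 and 10 under quantile normalization and 3 and 9 with edgeR. Mitochondrial chaperones and proteases showed 3 lower and 2 higher of 15. HSPA9, the matrix chaperone mortalin, fell by 1.08 (SE 0.25, limma adjusted p = 0.021) and LONP1, the matrix protease, fell by 0.81 (SE 0.11, limma adjusted p = 0.0049), whereas HTRA2, a protease of the space between the membranes, rose by 1.24 (SE 0.13, limma adjusted p = 0.0029). Fatty acid oxidation showed 3 lower and 0 higher of 19, namely ECI1, HADH and DECR1, at -1.09, -1.02 and -0.66. Antioxidant enzymes showed 2 lower and 2 higher of 19: the mitochondrial glutaredoxin GLRX2 was at -1.32 and the peroxiredoxin PRDX5 at -0.73, while PRDX1 was at 1.04. The chaperone and protease counts were 2 lower and 1 higher without shCtr replicate 1 and 1 and 1 without shCtr replicate 2, and those of the antioxidant enzymes 1 lower and 2 higher without shCtr replicate 1 and 1 and 0 without shCtr replicate 2. With the block 1 gene of fatty acid oxidation was higher.

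Cytosolic ribosomal proteins showed 0 lower and 5 higher of 79, with a median of 0.28, and translation initiation factors 2 lower and 1 higher of 32, among them EIF1, a start site selection factor, which fell by 1.05 on the log2 scale (SE 0.15, limma adjusted p = 0.0054). The ribosomal protein counts were 0 higher without shCtr replicate 1 or 2, and those of the initiation factors 1 lower and 1 higher without shCtr replicate 1, 2 or 3 or without shSIRT3-1 replicate 1 and 2 and 2 without shSIRT3-1 replicate 3, with 2 higher under the block. Under median-ratio scaling 9 ribosomal proteins and 4 initiation factors were higher, and edgeR gave the same numbers. Purine and pyrimidine enzymes showed 2 lower of 20, GMPS and CTPS2, at -1.04 and -0.78, 5 lower with the replicate block, and 1 lower without shCtr replicate 1 or without shSIRT3-1 replicate 1, 0 without shCtr replicate 2 and 4 without shSIRT3-1 replicate 2. Proteasome subunits showed 0 calls among 36 by limma, 2 lower with the block, 2 higher with median-ratio scaling, quantile normalization or edgeR, 1 higher without shCtr replicate 1 or shSIRT3-1 replicate 3, and 1 lower without shCtr replicate 3.

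Sterol synthesis genes showed 0 lower and 10 higher of 23, with a median of 0.523. MSMO1, a demethylase of the sterol path, went from 18.3, 19.3 and 30 CPM to 67.1, 61.9 and 54.5 CPM, a log2 fold change of 1.47 (SE 0.21, limma adjusted p = 0.0054). SC5D, a desaturase, went from 40.1, 40.1 and 42.1 CPM to 105, 84.8 and 74.8 CPM, a log2 fold change of 1.09 (SE 0.14, limma adjusted p = 0.0045), and LSS, the lanosterol synthase, from 223, 209 and 201 CPM to 558, 477 and 316 CPM, a log2 fold change of 1.05 (SE 0.22, limma adjusted p = 0.015). The list median, relative to the shCtr mean, was 0.849 and 0.797 in shSIRT3-1 replicates 1 and 2 and -0.011 in replicate 3. HMGCS1, which makes HMG-CoA, stood at 59.9, 63.4 and 91.3 CPM and 192, 182 and 90.2 CPM with overlapping groups, and its call (adjusted p = 0.049 with limma) was lost with the replicate block (adjusted p = 0.069). Sterol counts were 4 higher without shCtr replicate 1 or 3, 3 without shCtr replicate 2, 5 without shSIRT3-1 replicate 1 or 2 and 16 without shSIRT3-1 replicate 3. Fatty acid synthesis genes showed 0 calls among 11 by limma, also with the block, and 1 higher without shSIRT3-1 replicate 3. Their median, relative to the shCtr mean, was 0.075 and 0.176 in shSIRT3-1 replicates 1 and 2 and -1.147 in replicate 3.

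Lysosomal hydrolases and membrane proteins showed 3 lower and 6 higher of 31, with a median of 0.247, and the proton pump that acidifies the lysosome 1 lower and 4 higher of 19, with a median of 0.36. CTSA, a carboxypeptidase, went from 40.8, 38 and 43.5 CPM to 117, 86.2 and 182 CPM, a log2 fold change of 1.58 (SE 0.26, limma adjusted p = 0.0082). HEXA, a hexosaminidase, went from 45, 45.4 and 48.1 CPM to 122, 78 and 141 CPM, a log2 fold change of 1.25 (SE 0.22, limma adjusted p = 0.0096). MCOLN1, a lysosomal calcium channel, rose by 1.17, and the pump subunits ATP6V0D1 and ATP6V1G1 by 0.94 and 0.76. For CTSA and HEXA replicate 2 was the lowest of the shSIRT3-1 libraries. AGA, which removes sugars from asparagine, went from 18.8, 21.8 and 23.2 CPM to 5.33, 6.35 and 7.08 CPM, and fell by 1.75 on the log2 scale (SE 0.16, limma adjusted p = 0.0017), and LIPA, the acid lipase, fell by 1.07. CTSZ, a cathepsin, had a log2 fold change of -0.99 (limma adjusted p = 0.038, and 0.054 with the replicate block). For the hydrolases and membrane proteins the counts became 1 lower and 3 higher without shCtr replicate 1 or without shSIRT3-1 replicate 1, 1 and 1 without shCtr replicate 2 and 1 and 5 without shCtr replicate 3, and for the pump 1 lower and 2 higher without shCtr replicate 1 or without shSIRT3-1 replicate 1, 1 and 0 without shCtr replicate 2 and 2 and 3 without shSIRT3-1 replicate 3.

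Autophagy factors showed 7 lower and 2 higher of 35, with a median of -0.137, but 4 and 4 with median-ratio scaling or quantile normalization. This list lay near the values over all genes tested, 15.3% lower, 6.92% higher and a median of -0.105. Leaving out single libraries gave 5 lower and 1 higher without shCtr replicate 1, 1 and 0 without shCtr replicate 2 and 4 and 2 without shCtr replicate 3 or without shSIRT3-1 replicate 1. ULK2, an initiating kinase, went from 8.82, 9.43 and 11.8 CPM to 3.66, 5.18 and 2.96 CPM and fell by 1.35 on the log2 scale (SE 0.24, limma adjusted p = 0.01). The receptors CALCOCO2 and NBR1 and the membrane marker MAP1LC3B had log2 fold changes of -0.91, -0.77 and -0.90, and NBR1 was not called with median-ratio scaling. GABARAP, another ATG8 protein, and ATG16L1, part of the conjugation complex, rose by 0.69 and 0.69. MAP1LC3B shares sequence with MAP1LC3B2, so its reads are uncertain.

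Proliferation genes lay lower with shSIRT3-1, with few calls by limma without the block. The median of 27 mitosis genes was -1.37 with 1 called lower. That of 33 DNA replication genes was -0.866 with 5 called lower, and 0 were higher in both lists. With 15.3% of all genes tested called lower, the DNA replication count lay near that share and the mitosis count under it. Relative to the shCtr mean, the mitosis median was 0.34, 0.389 and -0.717 in the shCtr libraries and -0.731, -0.539 and -2.705 in the shSIRT3-1 libraries. Replicate 3 was thus the lowest in both groups, and shCtr replicate 3 overlapped shSIRT3-1 replicates 1 and 2. Fitted with the replicate block, 25 mitosis genes and 21 DNA replication genes were lower, against 19.5% of all genes tested. CDC25C, the phosphatase that starts mitosis, went from 12.7, 14.9 and 6.5 CPM to 2.68, 2.62 and 0.855 CPM and fell by 2.48 on the log2 scale (SE 0.50, limma adjusted p = 0.015). PRIM1, the primase, went from 29.5, 29.2 and 18.1 CPM to 8.38, 9.03 and 4.85 CPM and fell by 1.79 (SE 0.30, limma adjusted p = 0.0085), and MCM6, of the replicative helicase, from 120, 108 and 71.2 CPM to 34.8, 44.4 and 15 CPM, and fell by 1.77 (SE 0.42, limma adjusted p = 0.023). CCNE1 and CDT1, which act at the start of DNA replication, fell by 1.68 and 1.91, and CDT1 was not called with median-ratio scaling. The DNA replication counts were 1 lower without shCtr replicate 1 or 2 or without shSIRT3-1 replicate 1, and the mitosis counts 0 lower without shCtr replicate 1 or 2, 2 without shSIRT3-1 replicate 2 and 5 without shSIRT3-1 replicate 3.

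**Figure D3:**
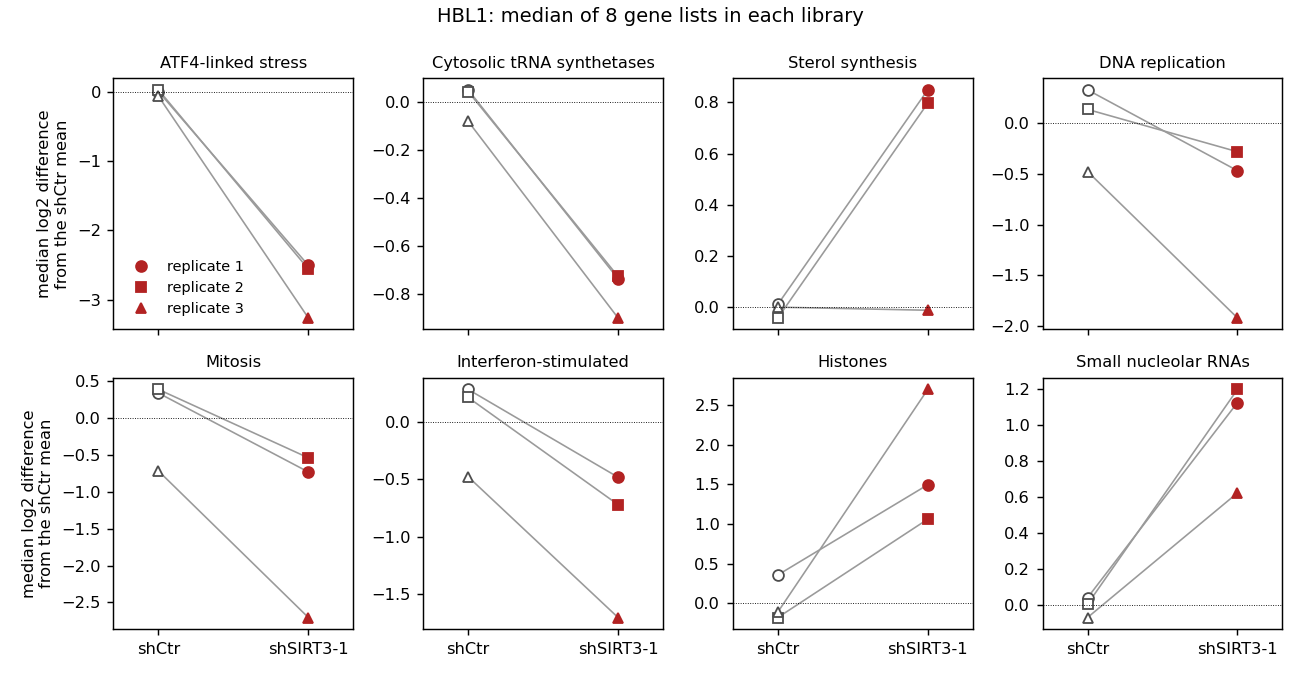
Median over the members of 8 gene lists of the log2 difference from the mean of the shCtr libraries, for each library, with lines joining libraries of the same number. The vertical axes differ between panels. The ATF4-linked list falls to between -2.51 and -3.27 in the 3 shSIRT3-1 libraries, while the sterol list stays at -0.011 in replicate 3 and replicate 3 is the lowest library of both groups for DNA replication, mitosis and interferon-stimulated genes.

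Cell cycle brakes and G1 regulators showed 2 lower and 0 higher of 12, the kinase CDK6 at -1.27 and its inhibitor CDKN2D at -1.69, with 0 lower without shCtr replicate 1 or 2, 1 without shCtr replicate 3 or without shSIRT3-1 replicate 1 and 4 without shSIRT3-1 replicate 3. Targets of p53 moved both ways, with 5 lower and 2 higher of 21. Over all genes tested 15.3% were lower and 6.92% higher, and the lists of this paragraph are read against these shares. MDM2, the p53 ligase, went from 73.2, 78.3 and 65.3 CPM to 31.9, 31.4 and 23.2 CPM and fell by 1.33 on the log2 scale (SE 0.16, limma adjusted p = 0.0034). GADD45A, FAS and FDXR fell by 1.95, 1.31 and 1.30, and PMAIP1, the death protein NOXA, fell by 1.09. BTG2, an antiproliferative factor, rose from 108, 120 and 167 CPM to 401, 361 and 829 CPM, a log2 fold change of 1.93 (SE 0.34, limma adjusted p = 0.01), highest in replicate 3 of both groups. BAX, a pore-forming death protein, rose from 35.3, 38.2 and 27.2 CPM to 69.6, 64.8 and 64.7 CPM, a log2 fold change of 1.00 (SE 0.15, limma adjusted p = 0.0061). The p53 target counts were 3 lower and 1 higher without shCtr replicate 2. In the BCL2 family, PMAIP1 and BAX were the 2 calls among 14 genes, 0 of its 5 survival members were called by limma, the block called 2 lower and edgeR 0 lower, and leaving out single libraries gave 0 lower and 1 higher without shCtr replicate 1 or 2 or without shSIRT3-1 replicate 1 or 2 and 2 and 1 without shCtr replicate 3 or without shSIRT3-1 replicate 3. BCL2 itself, chosen after its values were seen, stood at 269, 292 and 292 CPM and 238, 196 and 220 CPM, a log2 fold change of -0.39 (SE 0.12, limma adjusted p = 0.053). MYC and its partners showed 2 lower of 11, the antagonists MXI1 and MNT, at -0.74 and -0.67. MYC itself stood at 171, 166 and 135 CPM and 169, 190 and 60.7 CPM, a log2 fold change of -0.32 (SE 0.42, limma adjusted p = 0.58), with the lowest value in shSIRT3-1 replicate 3. The block called 1 gene of this list higher, and the counts were 1 lower and 0 higher with median-ratio scaling or quantile normalization, 1 and 1 with edgeR, and 0 lower without shCtr replicate 1 or 2 or without shSIRT3-1 replicate 1 and 1 without shCtr replicate 3 or without shSIRT3-1 replicate 2.

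Replication-dependent histone genes rose, with 6 higher and 0 lower of 9 tested of 73 listed, and a median of 1.77. Only members above the filter on low values are counted, and a member could pass it through the group in which it was high. HIST2H2BE went from 3.34, 2.42 and 3.26 CPM to 17.9, 12.2 and 33.7 CPM, a log2 fold change of 2.67 (SE 0.37, limma adjusted p = 0.0051), and HIST1H2BG from 0.386, 0.22 and 0.252 CPM to 1.85, 1.12 and 5.59 CPM, a log2 fold change of 2.65 (SE 0.56, limma adjusted p = 0.016). Replicate 3 was the highest shSIRT3-1 library for both. Histone genes are near-identical copies, so their reads are uncertain. The histone counts were 2 higher without shCtr replicate 1, 2 or 3 and 3 without shSIRT3-1 replicate 1.

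Small nucleolar and Cajal body RNAs, which guide modification of other RNAs and lie in introns of host genes, showed 40 higher and 1 lower of 59 tested of 457 listed, with a median of 0.999. As for the histone genes, a member could pass the filter on low values through the group in which it was high, as SNORA57 did, so the count and the median describe these members alone. SNORD2 went from 1.75, 1.43 and 1.86 CPM to 5.36, 4.99 and 5.14 CPM, a log2 fold change of 1.57 (SE 0.17, limma adjusted p = 0.0029), and SNORA57 from 0.619, 0.283 and 0.328 CPM to 1.66, 1.54 and 1.65 CPM, a log2 fold change of 1.81 (SE 0.29, limma adjusted p = 0.0074). SNORD14C and SNORD35A rose by 1.78 and 1.46. Since they lie within host genes, their reads and those of unspliced host transcripts cannot be told apart. Their host transcripts showed 2 lower and 6 higher of 21, with a median of 0.269, including SNHG1, host of many of them, which went from 278, 284 and 211 CPM to 156, 162 and 85.7 CPM and fell by 0.98 (SE 0.27, limma adjusted p = 0.037), and SNHG9, which rose by 1.19. The small RNA counts were 0 lower and 11 higher without shCtr replicate 1, 0 and 8 without shCtr replicate 2, 0 and 30 without shCtr replicate 3, 0 and 14 without shSIRT3-1 replicate 1 and 0 and 24 without shSIRT3-1 replicate 2, and the host counts 0 lower and 2 higher without shCtr replicate 1, 0 and 1 without shCtr replicate 2, 0 and 4 without shCtr replicate 3, 0 and 3 without shSIRT3-1 replicate 1 and 2 and 10 without shSIRT3-1 replicate 3.

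Interferon-stimulated genes showed 9 lower and 0 higher of 43, with a median of -0.956. Over all genes tested 15.3% were lower, 19.5% with the replicate block, and the median was -0.105. ISG15, a ubiquitin-like protein, went from 173, 160 and 125 CPM to 83.3, 64 and 23.5 CPM and fell by 1.59 on the log2 scale (SE 0.45, limma adjusted p = 0.04). TLR7, a sensor of single-stranded RNA, went from 6.15, 6.71 and 4.95 CPM to 1.02, 1.41 and 0.504 CPM and fell by 2.57 (SE 0.35, limma adjusted p = 0.005), and GBP2, a GTPase, from 32.4, 33.4 and 16.7 CPM to 11.2, 8.57 and 9.01 CPM, and fell by 1.45 (SE 0.29, limma adjusted p = 0.014). Replicate 3 was the lowest library of both groups for ISG15, and for GBP2 with shCtr alone. IFIT2, which binds viral RNA, was at -1.80 and was not called with median-ratio scaling. The list median in each library, relative to the shCtr mean, was 0.283, 0.213 and -0.477 with shCtr and -0.481, -0.72 and -1.702 with shSIRT3-1. With the replicate block 32 of 43 were lower, and leaving out single libraries gave 1 lower without shCtr replicate 1 or 2, 15 without shCtr replicate 3 and 14 without shSIRT3-1 replicate 3.

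The NF-kappaB pathway showed 9 lower and 1 higher of 34, with a median of -0.554, 14 lower with the replicate block and 7 lower and 2 higher with edgeR. IRF4, a target and a factor on which cells of this type depend, went from 405, 388 and 343 CPM to 168, 195 and 72.7 CPM and fell by 1.498 on the log2 scale (SE 0.36, limma adjusted p = 0.024). CD44, the hyaluronan receptor, went from 628, 642 and 686 CPM to 303, 344 and 236 CPM and fell by 1.16 (SE 0.17, limma adjusted p = 0.0055), TNFAIP3, the inhibitor A20, fell by 1.03 (SE 0.26, limma adjusted p = 0.03), and SGPP2, a sphingosine phosphatase, fell by 1.40 (SE 0.18, limma adjusted p = 0.0047). TNF, a ligand, rose from 8.8, 6.08 and 6.33 CPM to 14.2, 10.9 and 16.7 CPM, a log2 fold change of 0.96 (SE 0.22, limma adjusted p = 0.021). The subunits accounted for 2 lower of 5, the inhibitors for 2 lower of 8, and the targets for 5 lower and 1 higher of 21. NFKBIA, the inhibitor IkappaB-alpha, chosen after its values were seen, stood at 50, 48.3 and 52.4 CPM and 25.6, 35.2 and 21.4 CPM and fell by 0.90 (SE 0.19, limma adjusted p = 0.016). The NF-kappaB counts were 3 lower and 1 higher without shCtr replicate 1, 2 and 0 without shCtr replicate 2, 7 and 0 without shCtr replicate 3, 4 and 0 without shSIRT3-1 replicate 1 and 9 and 2 without shSIRT3-1 replicate 3.

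Factors of B-cell and plasma cell identity showed 9 lower and 1 higher of 18, with a median of -0.655. PAX5, which maintains B-cell identity, went from 561, 556 and 608 CPM to 276, 356 and 136 CPM and fell by 1.28 on the log2 scale (SE 0.34, limma adjusted p = 0.034). BACH2, a repressor of plasma cell fate, went from 206, 213 and 224 CPM to 127, 117 and 99.5 CPM and fell by 0.91 (SE 0.12, limma adjusted p = 0.0049). POU2AF1, a coactivator, and MEF2B fell by 0.99 and 2.16, while ID3, an inhibitor of E proteins, rose from 14.2, 15.1 and 20.3 CPM to 27, 30.3 and 39.1 CPM, a log2 fold change of 0.95 (SE 0.20, limma adjusted p = 0.016). PAX5 was lowest in shSIRT3-1 replicate 3, and BACH2 varied little within the groups. Identity factor counts were 1 lower and 0 higher without shCtr replicate 1 or 2, 3 and 1 without shCtr replicate 3 and 4 and 1 without shSIRT3-1 replicate 1, and 7 lower and 1 higher with median-ratio scaling.

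Markers of the cell of origin moved both ways. The activated B-cell list had 3 lower and 1 higher of 16 and the germinal centre list 4 lower and 2 higher of 10. Over all genes tested 15.3% were lower and 6.92% higher, and the activated list lay near these shares. RGS13, a brake on chemokine signals, went from 124, 142 and 124 CPM to 36.4, 56.5 and 16.7 CPM and fell by 1.99 on the log2 scale (SE 0.41, limma adjusted p = 0.015). SERPINA9, a germinal centre serpin, went from 0.274, 0.409 and 0.755 CPM to 3.19, 2.82 and 11.8 CPM, a log2 fold change of 3.15 (SE 0.59, limma adjusted p = 0.012), and ITPKB, a kinase of inositol phosphates, rose by 1.28 (SE 0.24, limma adjusted p = 0.012). The rise of SERPINA9 had an adjusted p of 0.0509 without shCtr replicate 1 and 0.0571 without shCtr replicate 2 (limma). The largest fall of the activated list was that of IRF4, at -1.498, described above with the NF-kappaB pathway. In the same list BLNK, a receptor adaptor, and CREB3L2 fell by 1.32 and 0.72, and FUT8 rose by 0.59. The activated list had 2 lower and 0 higher without shCtr replicate 1 or without shSIRT3-1 replicate 1, 0 and 0 without shCtr replicate 2, 1 and 1 without shCtr replicate 3 and 3 and 0 without shSIRT3-1 replicate 2 and 2 higher with the block, and the germinal centre list 2 lower and 0 higher without shCtr replicate 1 or 2.

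B-cell receptor signalling showed 4 lower and 5 higher of 29. Receptor chains were on the higher side: CD79A went from 277, 261 and 390 CPM to 515, 477 and 668 CPM, a log2 fold change of 0.85 (SE 0.21, limma adjusted p = 0.027), and CD79B from 309, 331 and 465 CPM to 550, 580 and 643 CPM, a log2 fold change of 0.70 (SE 0.18, limma adjusted p = 0.033). NFATC2, a factor that responds to calcium, went from 75.9, 80.1 and 82.9 CPM to 28.6, 29.2 and 22.4 CPM and fell by 1.58 on the log2 scale (SE 0.13, limma adjusted p = 0.0014), and the kinase FYN fell by 1.39 (SE 0.12, limma adjusted p = 0.0014). CR2, the complement receptor, fell by 1.70. CD72, an inhibitory coreceptor, was at 0.67 with a limma adjusted p of 0.035 that became 0.054 with the replicate block, under which 3 genes were higher. The receptor signalling counts were 4 lower and 0 higher without shCtr replicate 1 or without shSIRT3-1 replicate 1, 2 and 0 without shCtr replicate 2 and 4 and 2 without shSIRT3-1 replicate 2.

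Surface and secreted immune molecules divided as follows. For MHC class II presentation 1 was lower and 3 higher of 16, with a median of 0.39: HLA-DRA went from 129, 132 and 192 CPM to 241, 245 and 244 CPM, a log2 fold change of 0.71 (SE 0.17, limma adjusted p = 0.025), HLA-DPB1 and HLA-DRB1 were at 0.69 and 0.60, and RFXAP, a subunit of their transcription complex, fell by 1.22 (SE 0.18, limma adjusted p = 0.0057). For MHC class I 1 of 15 was higher, the transactivator NLRC5 at 0.68. HLA genes are polymorphic and share sequence, so their reads are uncertain. Costimulatory and checkpoint ligands had 5 lower and 2 higher of 11, with a median of -0.974. CD48, a ligand of lymphocyte receptors, went from 42.7, 46.5 and 38.8 CPM to 14.7, 13.8 and 3.36 CPM and fell by 2.26 on the log2 scale (SE 0.54, limma adjusted p = 0.024), and CD70, the ligand of CD27, fell by 1.08 (SE 0.30, limma adjusted p = 0.04). ICOSLG rose by 1.11 and TNFRSF14 by 0.60. The class II counts were 1 lower and 5 higher with median-ratio scaling or edgeR, and 1 lower and 0 higher without shCtr replicate 1 or 2 or without shSIRT3-1 replicate 1, 1 and 6 without shCtr replicate 3 and 2 and 1 without shSIRT3-1 replicate 2, those of class I 0 lower and 0 higher without shCtr replicate 2 or without shSIRT3-1 replicate 1 and 1 and 0 without shCtr replicate 3, with 3 lower under the block, and those of the costimulatory list 1 lower and 0 higher without shCtr replicate 1, 0 and 0 without shCtr replicate 2, 4 and 0 without shCtr replicate 3, 3 and 0 without shSIRT3-1 replicate 1 and 4 and 1 without shSIRT3-1 replicate 2.

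Chemokines, cytokines and homing receptors had 7 lower and 4 higher of 25. The integrin ITGAL, which mediates adhesion to endothelium, went from 7.07, 8.63 and 11.1 CPM to 1.45, 2.07 and 0.297 CPM and fell by 3.02 on the log2 scale (SE 0.61, limma adjusted p = 0.015). IL6R, the interleukin 6 receptor, went from 104, 96.5 and 72.1 CPM to 37.7, 37 and 9.82 CPM and fell by 1.90 (SE 0.51, limma adjusted p = 0.036). The 16 receptors of this list had 6 lower and 2 higher, with a median of -0.664. The higher pair position B cells in lymphoid tissue: GPR183 went from 0.731, 0.676 and 0.733 CPM to 6.32, 4.62 and 6.74 CPM, a log2 fold change of 2.86 (SE 0.20, limma adjusted p = 0.00092), and S1PR1 from 4.75, 5.85 and 6.06 CPM to 21.3, 19.9 and 11.3 CPM, a log2 fold change of 1.59 (SE 0.26, limma adjusted p = 0.0085). LTB, a lymphotoxin chain, went from 1.64, 2 and 2.6 CPM to 6.72, 9.59 and 8.43 CPM, a log2 fold change of 1.94 (SE 0.23, limma adjusted p = 0.0035), while LTA fell by 1.51 (SE 0.34, limma adjusted p = 0.02). For this list the counts became 2 lower and 3 higher without shCtr replicate 2.

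The 10 largest falls and 10 largest rises among called genes were taken where the higher group had a mean of at least 5 CPM and the groups did not overlap. Besides ASS1, INHBE, SLC6A9, ALDH1L2 and CHAC1, the falls were COLGALT2, ESRP1, SNTB1, CTNNA2 and RASGRP4. COLGALT2, a collagen galactosyltransferase, went from 6.84, 9.56 and 11 CPM to 0.0466, 0.0784 and 0.144 CPM and fell by 5.61 (SE 0.29, limma adjusted p = 0.00062). ESRP1, a splicing factor of epithelial cells, went from 5.73, 7.66 and 9.4 CPM to 0, 0.0436 and 0.162 CPM and fell by 5.60 (SE 0.39, limma adjusted p = 0.00092). SNTB1, a syntrophin, went from 17.2, 21 and 16.4 CPM to 0.327, 0.331 and 0.198 CPM and fell by 5.58 (SE 0.22, limma adjusted p = 0.00017). All 3 were at or under 0.331 CPM in every shSIRT3-1 library. CTNNA2, a catenin, and RASGRP4, an activator of Ras, fell by 4.92 and 4.37 on the log2 scale.

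Among the rises, CDHR1, a cadherin of photoreceptors, went from 0.173, 0.252 and 0.241 CPM to 29.2, 9.23 and 18.7 CPM, a log2 fold change of 5.75 (SE 0.41, limma adjusted p = 0.00092). SLC12A7, a potassium chloride cotransporter, went from 21.1, 22 and 24.3 CPM to 162, 110 and 582 CPM, a log2 fold change of 3.28 (SE 0.57, limma adjusted p = 0.0094). Replicate 2 was the lowest shSIRT3-1 library for both genes, and the highest was replicate 1 for CDHR1 and replicate 3 for SLC12A7. The long noncoding RNA KCNQ1OT1, antisense to KCNQ1, went from 6.3, 6.75 and 11 CPM to 66.5, 42.5 and 126 CPM, a log2 fold change of 3.18 (SE 0.41, limma adjusted p = 0.0045), and since the counting is not stated to use strand, its reads cannot be told apart from those of the host. CELF6, an RNA-binding protein, and C10orf10 rose by 3.71 and 2.98. FBXW12, NYNRIN and the noncoding RNA MIAT rose by 3.78, 3.48 and 2.89, and these calls were lost without shCtr replicate 1 and without shCtr replicate 2, with limma adjusted p between 0.0583 and 0.122, and for MIAT also without shCtr replicate 3 (0.0892) and without shSIRT3-1 replicate 1 (0.0504).

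**Figure D4:**
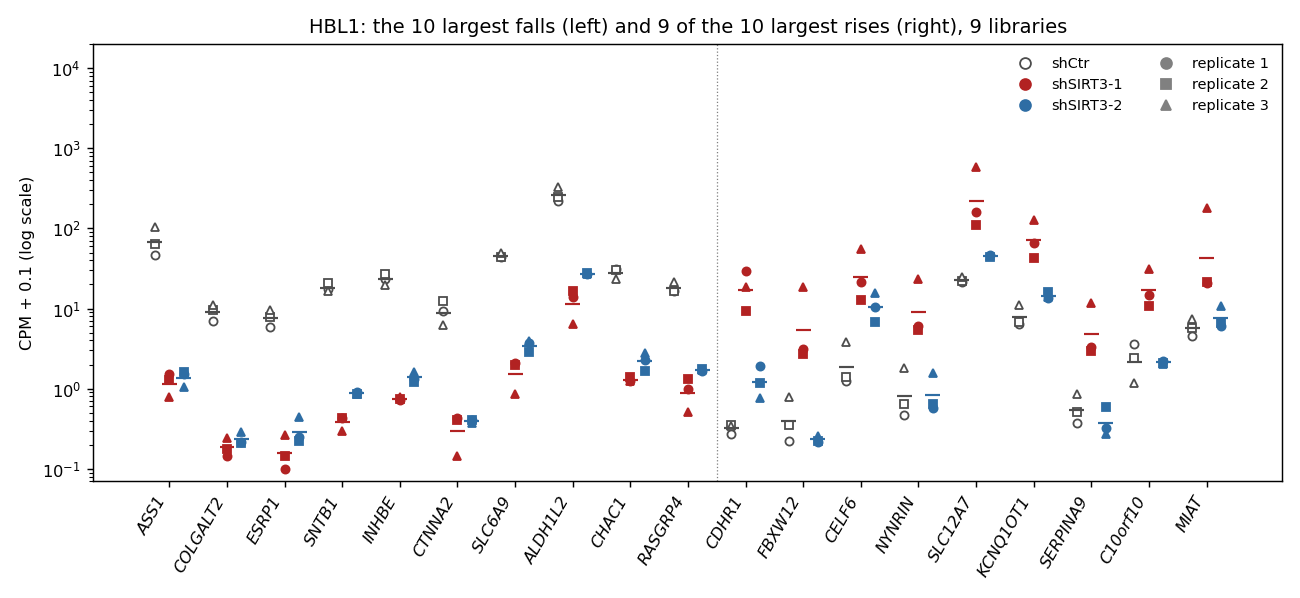
Level in 9 HBL1 libraries (CPM + 0.1, log axis) of the genes with the 10 largest falls and 9 of the 10 largest rises with shSIRT3-1, for shCtr (open), shSIRT3-1 (red) and shSIRT3-2 (blue). Symbol shapes give the replicate number and bars the mean on the log scale. The falls lie low with both hairpins, while FBXW12 lies at or below 0.679 CPM with shCtr and at or below 0.16 CPM with shSIRT3-2.

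The second hairpin, shSIRT3-2, was measured in the same line with 3 libraries against the same shCtr libraries, so its values are set side by side and the hairpins were compared directly. SIRT3 stood at 2.84, 3.12 and 3.82 CPM with shSIRT3-2, and the direct difference, shSIRT3-1 minus shSIRT3-2, was -0.56 on the log2 scale (SE 0.15, limma adjusted p = 0.021). Over all genes tested, 1706 (14.5%) were lower and 1552 (13.2%) higher with shSIRT3-1 than with shSIRT3-2. For the ATF4-linked factors the median change against shCtr was -2.68 with shSIRT3-1 and -2.50 with shSIRT3-2, and 6 of 18 were lower and 2 higher in the direct test. ATF4 stood at 140, 127 and 158 CPM with shSIRT3-2 and did not pass the direct test, at -0.20 (SE 0.13, limma adjusted p = 0.23). For the cytosolic tRNA synthetases 0 of 20 passed by limma, and the median direct difference was -0.271. PHGDH and SLC7A11 were named for their falls with shSIRT3-1 in the same libraries, and this choice favours a negative direct difference. PHGDH stood at 72.9, 71.2 and 89.2 CPM with shSIRT3-2, a direct difference of -1.25 (SE 0.28, limma adjusted p = 0.01), and SLC7A11 at 2.89, 2.13 and 3.05 CPM, a direct difference of -1.92 (SE 0.26, limma adjusted p = 0.0014).

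Several gene lists held members that differed between the hairpins. Over all genes tested the shares were 14.5% lower and 13.2% higher, so the list counts are read against these. Enzymes of serine and one-carbon metabolism had 10 lower and 1 higher of 15 in the direct test, with a median change against shCtr of -1.28 with shSIRT3-1 and -0.265 with shSIRT3-2. Glutathione genes had 8 lower and 0 higher of 13, with medians of -0.491 and 0.204, amino acid transporters 6 lower and 2 higher of 19, and enzymes of glutamine, asparagine and proline 7 lower and 4 higher of 19. In the same test 27 of 33 DNA replication genes and 10 of 27 mitosis genes were lower with shSIRT3-1, 30 of 43 interferon-stimulated genes were lower, 8 of 9 histone genes were higher and 11 of 16 MHC class II genes were higher, with 0 in the opposite direction for all of these lists except class II, where 1 was lower. The filter on low values used the shCtr and shSIRT3-1 libraries alone. A histone gene could pass it by being high with shSIRT3-1, which favours a positive direct difference for that list. MHC class I had 1 lower and 1 higher of 15. Against shCtr the median of the DNA replication genes was -0.866 with shSIRT3-1 and 0.455 with shSIRT3-2, and that of the interferon-stimulated genes -0.956 and 0.359. CCNE1 stood at 16.9, 15.7 and 12.1 CPM with shSIRT3-2, a direct difference of -1.92 (SE 0.39, limma adjusted p = 0.0065), and ISG15 at 266, 195 and 190 CPM, a direct difference of -2.10 (SE 0.41, limma adjusted p = 0.0055). HIST2H2BE stood at 2.55, 2.58 and 2.37 CPM, a direct difference of 2.92 (SE 0.32, limma adjusted p = 0.0007), and HLA-DRA at 127, 123 and 104 CPM, a direct difference of 1.05 (SE 0.16, limma adjusted p = 0.002). For CCNE1 and ISG15 the shSIRT3-2 libraries lay within or above the shCtr range, and the shSIRT3-1 libraries lay below it. CCNE1, ISG15, HIST2H2BE and HLA-DRA were named for their changes with shSIRT3-1 in the same libraries. This choice favours a direct difference in the same direction.

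Of the largest changes, ASS1 and COLGALT2 were low with both hairpins, at 1.41, 1.54 and 0.957 CPM and 0.117, 0.108 and 0.188 CPM with shSIRT3-2. The next genes were chosen for their rises with shSIRT3-1 in the same libraries, and this choice favours a positive direct difference. SERPINA9 stood at 0.224, 0.499 and 0.169 CPM, a direct difference of 3.70 (SE 0.57, limma adjusted p = 0.0023). CDHR1 stood at 1.82, 1.06 and 0.676 CPM, above shCtr and below shSIRT3-1, a direct difference of 3.85 (SE 0.44, limma adjusted p = 0.00076). GPR183 stood at 1.31, 1.49 and 1.7 CPM, a direct difference of 1.90 (SE 0.18, limma adjusted p = 0.00044). HIF1A, which was not called with shSIRT3-1, stood at 30.8, 28.7 and 27.2 CPM with shSIRT3-2, a direct difference of 0.88 (SE 0.10, limma adjusted p = 0.00073). CD22, a B-cell coreceptor chosen after its values were seen, stood at 38.4, 54 and 63.9 CPM with shCtr, 59.4, 73.7 and 36.9 CPM with shSIRT3-1 and 6.29, 12.6 and 4.55 CPM with shSIRT3-2, a direct difference of 2.92 (SE 0.38, limma adjusted p = 0.0012). The direct counts rested in part on single libraries, with 2050 genes called without shSIRT3-2 replicate 1 against 3258 with all 9 libraries.

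The same hairpin was used in Karpas422, a DLBCL line that the study places in the subtype with high oxidative phosphorylation genes, and in OCI-LY1, a line of the germinal centre B-cell type. The difference between responses was tested as an interaction over 18 libraries. The response was more negative in HBL1 than in Karpas422 for 643 genes (5.48%) and more positive for 425 (3.62%), and against OCI-LY1 for 1141 (9.72%) and 382 (3.25%). The response of SIRT3 itself did not pass this test against either line, at -0.83 (SE 0.29, limma adjusted p = 0.073) and 0.08 (SE 0.29, limma adjusted p = 0.87). Of the ATF4-linked factors, 1 was more negative and 1 more positive than in Karpas422, and 3 were more negative than in OCI-LY1. STC2, a secreted glycoprotein on that list that was chosen after its values were seen, fell in HBL1 from 29.1, 28.8 and 25.1 CPM to 3.53, 3.04 and 1.78 CPM and had log2 fold changes of 0.08 in Karpas422 and -0.02 in OCI-LY1, and the differences were -3.40 (SE 0.38, limma adjusted p = 9.7e-05) and -3.30 (SE 0.38, limma adjusted p = 0.00012). ATF4 had log2 fold changes of -1.02 and -0.42 in these lines and did not pass the test against either, at -0.28 (SE 0.35, limma adjusted p = 0.64) and -0.87 (SE 0.35, limma adjusted p = 0.1). PSAT1 likewise did not pass, at -0.84 (SE 0.78, limma adjusted p = 0.51) and -1.86 (SE 0.78, limma adjusted p = 0.11). For the cytosolic tRNA synthetases 0 of 20 passed against either line by limma.

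Interferon-stimulated genes had 8 of 43 members with a more negative response in HBL1 than in Karpas422 and 18 of 43 than in OCI-LY1, with 0 more positive in both. Factors of B-cell identity had 8 of 18 more negative than in OCI-LY1 and 1 of 18 than in Karpas422. ASS1 and ALDH1L2 were chosen for the size of their falls in these HBL1 libraries, and this choice favours a negative difference. ASS1 had log2 fold changes of -0.30 in Karpas422 and -0.61 in OCI-LY1, with differences of -5.57 (SE 0.64, limma adjusted p = 0.00011) and -5.27 (SE 0.64, limma adjusted p = 0.00016). ALDH1L2 had 0.08 and -0.34 there, with differences of -4.61 (SE 0.81, limma adjusted p = 0.0028) and -4.18 (SE 0.81, limma adjusted p = 0.0037). In all 1068 genes passed against Karpas422 and 1523 against OCI-LY1, and these counts rested in part on single libraries. They were 608 and 930 without shCtr replicate 2 of HBL1. Against Karpas422 they were 1642 without shSIRT3-1 replicate 2 of HBL1 and 693 without shSIRT3-1 replicate 1 of Karpas422.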

How the data were processed

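RNA from HBL1 cells with shCtr or shSIRT3-1 at day 8 (3 libraries each) was isolated with TRIzol and RNeasy, made into TruSeq libraries with random priming and sequenced as paired ends. The authors aligned reads to hg19 with STAR and counted RefSeq genes with Rsubread, whose versions and strand setting are not given in the sources used here. The deposited values are labelled FPKM, but in each library 100% of them were whole multiples of the value of 1 read (tolerance 0.1 read), without division by gene length. They are therefore treated as CPM of a library total that is not stated to be of mapped reads, and a count of reads per gene was recovered from the deposited values for the count models.

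Genes that reached 1 CPM in 3 or more of the 6 libraries were tested with limma 3.58.1 (R 4.3.3, trended variance) on log2(CPM + 0.1), and called where the fold change exceeded 1.5 and the p adjusted by Benjamini-Hochberg lay under 0.05. The design had been written for FPKM values, and the same test was kept. The hairpins were compared in a fit of the 9 HBL1 libraries, and the lines in a fit of 18 libraries with an interaction term. Named genes were those named in the study for this experiment, the 10 largest falls and 10 largest rises without overlap and with at least 5 CPM in the higher group, and up to 4 called members of each gene list in each direction, with other names said to be chosen after their values were seen. Some genes that met this rule are not reported here. The members and the 52 lists were chosen with earlier results of these data known. Same-numbered libraries of both groups deviated together (r = 0.468, 0.296 and 0.454). However, shCtr replicate 1 also deviated with shSIRT3-1 replicate 2 (0.367), and shCtr replicate 2 with shSIRT3-1 replicate 1 (0.327). These values set replicate 3 apart and do not tell how replicates 1 and 2 pair. The replicate numbers were still taken to pair the libraries, and no batch is stated. Alternatives were other pseudocounts, filters, scalings and libraries, edgeR 4.0.16, DESeq2 1.42.0, and a correction for GC content and length, which 97.6% of tested genes had. The procedure was tested on simulated data. The precision rests on 3 libraries per group, and counting error alone is not the spread between libraries.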

Additional observations from a re-analysis of the deposited data

Results flagged for a closer look

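For 15 of 19 described genes with the largest changes, the response to shSIRT3-1 in HBL1 differed from that in Karpas422 or OCI-LY1 in a test of the difference itself (limma interaction over 18 libraries, 3 per group and line). These genes were chosen for their large changes in the same HBL1 libraries, and this choice favours a difference in that direction. Of all genes tested, 5.48% had a more negative and 3.62% a more positive response in HBL1 than in Karpas422, and 9.72% and 3.25% than in OCI-LY1. Each value is the HBL1 log2 fold change minus that of the other line. No explanation was tested.

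Among the falls, ASS1 differed by -5.57 from Karpas422 and by -5.267 from OCI-LY1, and COLGALT2 by -5.116 and -5.634. CTNNA2 differed by -4.465 and -4.814, RASGRP4 by -4.391 and -4.706, and the folate enzyme ALDH1L2 by -4.607 and -4.183. The splicing factor ESRP1 passed against OCI-LY1, at -4.429, and SNTB1 likewise, at -5.249. The adjusted p for these genes lay between 1.57e-05 and 0.0132 (limma).

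Among the rises, CDHR1 differed by 5.797 from Karpas422 and 4.005 from OCI-LY1. FBXW12 differed by 3.619 and 2.625, KCNQ1OT1 by 2.691 and 2.639, SERPINA9 by 3.51 and 2.119, and MIAT by 3.047 and 2.855. Passing against Karpas422 alone were NYNRIN at 3.288, SLC12A7 at 2.651 and C10orf10 at 2.672, and the last of these did not pass with the replicate block. Groups of 3 libraries are too small for the outlier test used on larger groups.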

How the results depend on the processing

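SIRT3 was lower under every alternative run. The 2608 calls were 834 to 3061 when single libraries were left out, the lower calls 653 to 2158 and the higher calls 181 to 903. The lowest of each came without shCtr replicate 2, the shallowest library, and the highest without shSIRT3-1 replicate 3. The higher calls were 1364 with quantile normalization, 1440 with edgeR's likelihood ratio test and 1480 with DESeq2, against 812. Of 27 genes named in the study or for the size of their change, 24 were called, and 20 to 25 without single libraries. Those named for size were picked among called genes, so their calls with all 6 libraries were fixed by the choice. Members of gene lists called were 301, and 107 to 355 without single libraries. The genes that differed between hairpins were 3258, and 2050 to 3781. Those that differed from Karpas422 were 1068, and 608 to 1642, or 1866 with quantile normalization, and those that differed from OCI-LY1 were 1523, and 930 to 2099. None of the 207 genes named by the rule changed direction under any alternative. Genes named outside the rule, such as MYC and CD22, were not checked in this way. DESeq2 gave an adjusted p for 206 of 207 named genes, and the correction for GC content and length covered 203. For rises without a call in all settings, and for the list counts, the cause was not tested.

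With the replicate block there were 3330 calls, 408 of them members of gene lists, 3777 genes that differed between hairpins, and 1295 and 1838 that differed from Karpas422 and OCI-LY1. The block cannot move a fold change in this balanced design, so SIRT3 fell by 2.701 with it as without it. The limma adjusted p for SIRT3 was 0.00344 with the block and 0.000779 without it. Of the 2608 calls 2568 were made with the block too, in the same direction. Among the 207 named genes 204 kept their call, with HMGCS1, CTSZ and CD72 as the exceptions. The libraries numbered 1 and 2 alone, an alternative chosen after seeing the data, gave 3546 calls. How far depth limits the low-expressed genes was not tested, and a fold change at the pseudocount is understated.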

Other observations

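Genes outside the named set, chosen after their values were seen, set the hairpins apart in inflammatory chemokines. CCL3, a ligand that attracts monocytes and T cells, stood at 2.49, 2.64 and 1.8 CPM with shCtr, 2.18, 1.38 and 2.36 CPM with shSIRT3-1 and 33.5, 19.8 and 58.2 CPM with shSIRT3-2, a direct difference of -4.07 on the log2 scale (SE 0.37, limma adjusted p = 0.00035). CCL4, its neighbour in the genome and a related ligand, stood at 1.92, 1.6 and 1.37 CPM, 1.4, 0.863 and 1.56 CPM and 28.5, 15.7 and 45 CPM, a direct difference of -4.35 (SE 0.37, limma adjusted p = 0.00028). All 3 shSIRT3-2 libraries lay above all others for both genes, while the shSIRT3-1 and shCtr libraries overlapped.

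In replicate 3 of shSIRT3-1, LDHA and CDKN1A lay far below the other libraries. LDHA, the lactate dehydrogenase, stood at 237, 242 and 45.2 CPM with shSIRT3-1 and 226, 178 and 111 CPM with shCtr, in both groups lowest in replicate 3. CDKN1A, the cell cycle inhibitor p21, stood at 228, 181 and 47.6 CPM and 252, 266 and 305 CPM. Neither gene passed the test in limma, with adjusted p of 0.79 and 0.16 in that order.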
